A study of Mus musculus with 4 samples.

Results

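The genes described here are 10 genes of hepatic lipogenesis and fatty acid desaturation, namely the regulators Srebf1, Mid1ip1 and Thrsp, the enzymes Fasn, Acly and Me1, the desaturases Scd1 and Scd2, the elongase Elovl5 and the acyltransferase Gpam. They were chosen by name, as every probe set that the array's annotation assigns to one of them, which gave 14 probe sets of 10 genes, out of 10833 probe sets of 8251 genes with a single name. The choice was made with results of the same genotype comparison in view, in which a probe set of Mid1ip1 and a probe set of Scd2 had passed the threshold and Srebf1 had come close to it. The differences between genotypes are therefore given as a description of these arrays. Errors and intervals show the spread the fit assigns, and where members are counted among the calls over all probe sets, the count supports nothing about them.

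Liver RNA was measured on 4 Affymetrix MG_U74Av2 arrays, 2 labelled as control mice (replicates 7 and 8) and 2 labelled as hepatic reductase null mice (replicates 7 and 8). No treatment is named for either genotype, and the labels used here name no strain, age, sex or feeding state. The labels state that RNA from 3 animals of a genotype was pooled for an experiment, while the control titles speak of a mouse, so an array may hold a pool or an animal, and any p-value measures only the spread between these samples. The reductase is taken to be Por, the flavoprotein that passes electrons from NADPH to microsomal P450 enzymes, which in the known line of this name is removed from hepatocytes by Cre under the albumin promoter, so that other liver cells keep it. No probe set is named Por in the annotation, and the genotype labels were not checked against its level. All 9 hepatocyte markers listed passed the filter on dim signals, with summed signals of 47236 and 47290 in control liver against 46561 and 44206 in null liver. Much of each sum came from Alb, Apoa1 and Serpina1c. Of the 9 markers 4 had positive and 5 negative differences, with 0 past the threshold. They ran from -0.63 for Ttr to 0.16 for Hnf4a (log2, null minus control). Pancreatic acinar markers, which liver should lack, stood apart on null replicate 7, where 5 genes summed to 2810 against 229 to 353 on the other arrays.

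Lipogenesis turns citrate exported from mitochondria into acetyl-CoA (Acly) and, through malonyl-CoA, into palmitate (Fasn), with NADPH supplied in part by malic enzyme (Me1). Desaturases then introduce a double bond, drawing electrons through cytochrome b5, elongases lengthen the chain, and Gpam, the mitochondrial glycerol-3-phosphate acyltransferase, commits acyl-CoA to glycerolipids. In liver, insulin and the oxysterol receptor LXR raise the transcription of Srebf1, whose product SREBP-1c activates most of these enzyme genes, and the paralogues Thrsp (Spot 14) and Mid1ip1 (MIG12) act on acetyl-CoA carboxylase, the malonyl-CoA-forming enzyme.

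The promoters of the 2 regulators whose null signals lay below control (Srebf1 and Mid1ip1), of the paralogue of the second (Thrsp) and of a target enzyme (Fasn) are shown so that regulators and targets can be compared by sequence. Each run is the 250 bases before a transcription start, from RefSeq on build GRCm38.p6, 5′ to 3′ on the strand of the gene. Capitals mark matches, on both strands, to the CCAAT box (CCAAT), the E-box (CACGTG), the sterol response element (TCACNCCAC) and GGTTACT, the beginning of the known LXR element of Srebf1. The last motif was chosen after the sequences had been read.
Srebf1, chr11:60210472-60210721, minus strand: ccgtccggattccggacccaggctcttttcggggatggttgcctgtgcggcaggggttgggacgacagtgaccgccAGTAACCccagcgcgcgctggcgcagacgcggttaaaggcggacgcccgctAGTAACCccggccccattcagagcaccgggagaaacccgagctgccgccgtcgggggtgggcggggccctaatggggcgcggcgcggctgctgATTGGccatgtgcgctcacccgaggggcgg
Mid1ip1, chrX:10717115-10717364, plus strand: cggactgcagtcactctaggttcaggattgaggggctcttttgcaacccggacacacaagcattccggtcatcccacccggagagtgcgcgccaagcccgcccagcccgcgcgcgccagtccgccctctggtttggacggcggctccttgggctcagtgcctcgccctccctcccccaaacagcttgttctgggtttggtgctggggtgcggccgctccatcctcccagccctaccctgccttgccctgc
Thrsp, chr7:97417551-97417800, minus strand: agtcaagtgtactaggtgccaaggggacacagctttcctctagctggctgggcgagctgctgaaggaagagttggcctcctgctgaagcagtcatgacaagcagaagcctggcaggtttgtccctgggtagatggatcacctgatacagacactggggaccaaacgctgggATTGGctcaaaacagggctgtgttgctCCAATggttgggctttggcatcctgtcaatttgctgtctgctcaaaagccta
Fasn, chr11:120824548-120824797, minus strand: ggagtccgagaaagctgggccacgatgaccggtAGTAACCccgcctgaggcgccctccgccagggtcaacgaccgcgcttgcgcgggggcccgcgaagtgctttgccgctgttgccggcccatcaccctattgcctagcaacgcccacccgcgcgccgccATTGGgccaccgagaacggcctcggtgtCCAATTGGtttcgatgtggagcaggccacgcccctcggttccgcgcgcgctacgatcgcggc

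RefSeq's table held 12 starts for 8 of the 10 genes, and Scd1 and Scd2 had no entry there. The Srebf1 start shown is 1 of 3, and it held GGTTACT on the minus strand of the run at 2 places, beginning 174 and 123 bases before the start, and a CCAAT box beginning 30 bases before it. Fasn held GGTTACT beginning 217 bases before its start and 3 CCAAT matches beginning 90, 62 and 59 bases before it, of which the last pair overlap. GGTTACT was found in 1.88% of all 32851 promoters of this length, and among the starts of these genes in Srebf1 and Fasn alone. Thrsp held CCAAT matches beginning 79 and 52 bases before its start, and Mid1ip1 held no match to any of the 4 motifs in this window. The CCAAT box was present at 7 of the 12 starts and in 33.8% of all promoters, the E-box at 1 start (Elovl5, 161 bases before it) and in 6.02%, and the sterol response element at 0 of the 12 and in 1.05%. These matches describe letters in a window and do not show binding.

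Srebf1 and the brighter Mid1ip1 probe set gave lower signals in null liver, and both Scd2 probe sets gave higher ones. The tested probe sets of the other 7 genes, Thrsp, Fasn, Acly, Scd1, Me1, Gpam and Elovl5, all lay within 0.2 of control on the log2 scale.

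Srebf1 signals were 1135.5 and 967.0 in control liver against 603.7 and 497.4 in null liver. Both null arrays lay below both control arrays, and the gap between the groups exceeded the gap within either. On the log2 scale the difference (null minus control) was -0.94 ± 0.14 (SE of the limma fit, n = 2 arrays each), a level 1.91-fold lower in null liver. The 4 pairings of a null with a control array gave -1.19 to -0.68. The probe set (93264_at) carries no mark for cross-binding in its name, and the annotation does not separate the SREBP-1a and SREBP-1c forms, which start at different promoters of the gene.

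Mid1ip1 was measured by 2 probe sets that gave differences of unlike size. The brighter (95135_at) read 443.3 and 466.8 in control liver against 239.5 and 226.1 in null liver. The replicates of each genotype lay close together here, and the difference was -0.97 ± 0.12 (log2, SE, n = 2 each), 1.95-fold lower in null liver. The dimmer (95134_at) read 128.6 on both control arrays against 126.0 and 86.0 in null liver, a difference of -0.30 ± 0.21 (log2, SE). On this probe set null replicate 7 was nearly level with the controls, and only null replicate 8 stood clearly lower, so that the difference was -0.58 without null replicate 7 and -0.03 without null replicate 8. The dimmer probe set's difference was smaller than the brighter one's by 0.66 on the log2 scale, so the size of the Mid1ip1 difference depends on which probe set is read.

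Thrsp, the thyroid hormone and carbohydrate responsive paralogue of Mid1ip1, read 1271.0 and 966.1 in control liver against 1147.2 and 1085.7 in null liver. The null values lay between the control values, with a difference of 0.01 ± 0.14 (log2, SE, n = 2 each) and a 95% interval of -0.32 to 0.34. Among the 3 regulators, Srebf1 and the brighter Mid1ip1 probe set lay at the 1.86th and 1.70th percentile of the differences of all probe sets tested. The dimmer Mid1ip1 probe set lay at the 17.5th and Thrsp at the 52.6th. The genes were chosen with these differences in view, so the ranks only describe them.

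**Figure D1:**
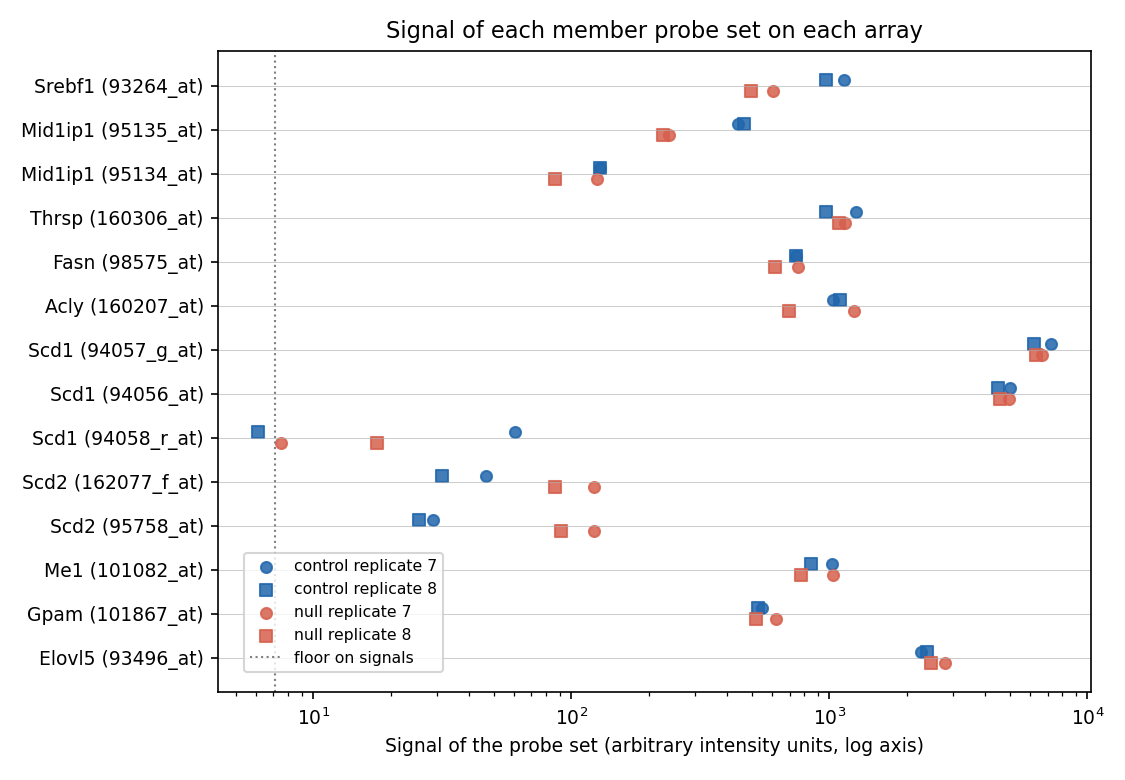
Signal of each of the 14 probe sets on the 4 arrays, on a log axis, with control arrays in blue and null arrays in red, replicate 7 as circles and replicate 8 as squares, and the floor of 7.1 as a dotted line. The null points of Srebf1 and of the brighter Mid1ip1 probe set lie to the left of the control points, those of both Scd2 probe sets lie to the right, and in most other rows the colours mix.

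The synthetic enzymes Fasn, Acly, Me1 and Gpam showed no such separation between genotypes. Fasn, the fatty acid synthase, read 740.7 and 741.1 in control liver against 758.1 and 615.8 in null liver, a difference of -0.12 ± 0.13 (log2, SE, n = 2 each). Its null arrays lay on either side of the controls. Acly, the ATP citrate lyase, read 1031.6 and 1100.2 in control liver against 1248.3 and 697.3 in null liver. Its null arrays also lay on either side of the controls, and the difference of -0.19 ± 0.25 (log2, SE) had a 95% interval of -0.78 to 0.39. Without null replicate 7 the Acly difference was -0.61, and without null replicate 8 it was 0.23.

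Me1, the cytosolic malic enzyme, read 1018.7 and 846.6 in control liver against 1031.7 and 775.1 in null liver, with a difference of -0.05 ± 0.16 (log2, SE, n = 2 each). In both genotypes replicate 7 was the higher, and the gap between replicates exceeded that between genotypes. Gpam read 545.9 and 529.2 in control liver against 620.5 and 521.0 in null liver, a difference of 0.08 ± 0.12. Elovl5, which lengthens polyunsaturated fatty acids, read 2261.3 and 2397.7 in control liver against 2812.9 and 2469.7 in null liver. Its null values lay above its control values, by 0.18 ± 0.09 (log2, SE), 1.13-fold, with 0.08 without null replicate 7 and 0.27 without null replicate 8.

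The desaturases differed from each other in pattern. Scd1, the main stearoyl-CoA desaturase of liver, was among the brightest signals, and its probe set 94057_g_at read 7225.4 and 6203.2 in control liver against 6651.1 and 6326.2 in null liver. Probe set 94056_at read 4995.1 and 4481.3 in control liver against 4959.4 and 4598.1 in null liver. On both, the null arrays lay between the control arrays, with differences of -0.05 ± 0.08 and 0.01 ± 0.08 (log2, SE, n = 2 each) and 95% intervals of -0.25 to 0.16 and -0.18 to 0.20. The last Scd1 probe set (94058_r_at) was too dim to be tested. It read 60.6 and 6.1 in control liver against 7.5 and 17.6 in null liver, and the arrays of a genotype differed from each other more than the genotypes did.

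Scd2, the desaturase better known from brain and adipose tissue, was dim in control liver and brighter in null liver on both of its probe sets. Probe set 95758_at read 29.0 and 25.6 in control liver against 121.8 and 91.0 in null liver, a difference of 1.95 ± 0.24 (log2, SE, n = 2 each), 3.86-fold. Probe set 162077_f_at, of a kind that can bind related transcripts, read 46.8 and 31.4 in control liver against 122.3 and 86.7 in null liver, a difference of 1.43 ± 0.28, 2.69-fold. On each probe set both null arrays lay above both control arrays. Scd2 and Scd1 lie in 1 cluster on chromosome 19, where the protein-coding order is Scd3, Scd2, Scd4, Scd1 in RefSeq's table, and the other Scd2 neighbours were not tested here. The tested probe sets of Scd1 lay within 0.05 of 0 on the log2 scale.

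Marker lists of other liver cells were read beside Scd2. Of 8 tested Kupffer cell and macrophage markers, 7 had positive differences and 1 passed the threshold, where 0.309% of all genes passed higher. The list's summed signal was 1078 and 1040 in control liver against 1434 and 1596 in null liver. Mpeg1, which passed, read 150 and 134.3 in control liver against 361.4 and 377.9 in null liver. Clec4f, a Kupffer cell marker and the 1 with a negative difference, was nearly level, at 395.6 and 375 against 389.2 and 374.7. All 7 tested stellate cell and fibroblast markers had positive differences with 0 past the threshold in limma, and the summed signal was 1061 and 1129 in control liver against 1393 and 1678 in null liver. Most of the stellate cell and fibroblast sum came from Dcn, at 838.4 and 843.9 in control liver against 1029.2 and 1183.5 in null liver. The macrophage and the stellate cell sums were both higher on null replicate 8 than on null replicate 7. Scd2 was higher on null replicate 7, as were all 13 tested probe sets described here. The 7 neutrophil markers on the array summed to 91.2 and 77.2 in control liver against 112 and 156 in null liver, with 3 of 4 tested markers positive, 0 past the threshold in limma and Ngp at or below the floor. Endothelial markers summed to 857 and 859 in control liver against 1021 and 962 in null liver, with 2 of 5 tested markers positive and 0 past the threshold. The 6 adipocyte markers on the array summed to 558 and 654 in control liver against 644.5 and 600 in null liver, with Retn at or below the floor on every array. Most of that sum came from Pnpla2, a lipase that hepatocytes also express, at 443 and 541.5 against 501 and 464.5. Lep, the leptin gene, read 76.8 and 75.5 in control liver against 88.3 and 69.3 in null liver (0.04 ± 0.20, log2, SE). The dim Fabp4, the adipocyte fatty acid binding protein, read 15 and 15.7 in control liver against 19.8 and 34.9 in null liver (0.78 ± 0.48). Of the 3 tested adipocyte markers 2 were positive and 0 passed the threshold. Of the 4 cholangiocyte markers on the array 0 were bright enough to be tested, with Epcam at or below the floor. The part of these cells in the Scd2 difference was not tested, and in bulk liver a change in the number of cells of a type and a change in RNA per cell cannot be told apart.

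**Figure D2:**
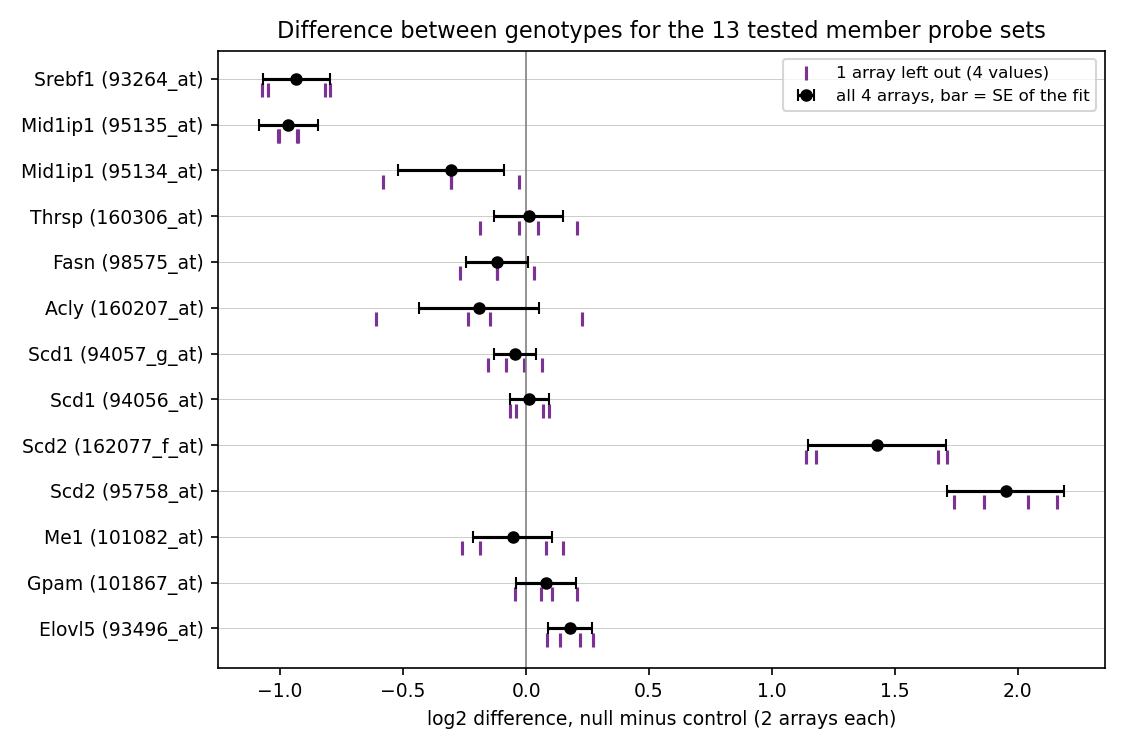
Difference between genotypes on the log2 scale for the 13 tested probe sets, as points with the SE of the fit, and the 4 values that result when an array is left out, as ticks. Srebf1 and Mid1ip1 (95135_at) keep values from -1.08 to -0.80 and both Scd2 probe sets values from 1.14 to 2.16, while the ticks of Thrsp, Fasn, Acly, Scd1, Me1 and Gpam fall on both sides of 0.

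In the limma fit across 7241 probe sets, 0.387% of probe sets passed an adjusted p under 0.05 (Benjamini-Hochberg), 22 (0.304%) higher and 6 (0.0829%) lower in null liver. Of the 14 probe sets described here 13 were bright enough to be tested, and 2 passed, Scd2 (95758_at) higher and Mid1ip1 (95135_at) lower. Each of the 2 calls ended when any of the 4 arrays was left out, and also when dim probe sets were kept, when the floor was raised to the 50th percentile, or when the trend with intensity was dropped. The groups did not overlap on 3 probe sets in each direction, those of Scd2 and Elovl5 higher and those of Srebf1 and Mid1ip1 lower, where 43.8% of all tested probe sets did not overlap, 20.4% higher and 23.4% lower. The median difference of the 13 probe sets was -0.05 (log2), with 6 positive and 7 negative, against -0.01 for all tested probe sets. Of the 13, 8 lay within 0.2 of 0, as did 46.9% of all tested. With 2 arrays a group the smallest two-sided p of an exact permutation test is 0.333, so none was run.

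The null arrays differed from each other in one direction across these genes. All 13 tested probe sets read higher on null replicate 7 than on null replicate 8, with a median difference of 0.28 and a range of 0.07 to 0.84 (log2), where 46.9% of all tested probe sets did so and their median difference was -0.03. Acly had the largest gap at 0.84, which 3.49% of all tested probe sets reached, followed by Mid1ip1 (95134_at) at 0.55 and Scd2 (162077_f_at) at 0.50. Me1 (0.41), Fasn (0.30), Srebf1 (0.28) and Gpam (0.25) were intermediate, and Thrsp (0.08) and Scd1 (94057_g_at, 0.07) were nearly level. The control arrays showed less of this, with 8 of the 13 higher on control replicate 7, 4 lower and 1 equal, and a median difference of 0.16. Between the control arrays Acly stood at -0.09 and Fasn was level, whereas Scd2 (162077_f_at) had a gap of 0.58. Among the 716 probe sets at least as bright as Gpam, 56.8% were higher on null replicate 7, and all 9 of these genes' probe sets in that range were.

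This pattern was noticed in the values and involves a single pair of arrays, so it has no test, and genes of a pathway are not independent replicates. Null replicate 7 was also the array with raised pancreatic acinar markers, and their part in the gap was not tested. Of the other genes of lipid synthesis and related pathways 19 of 44 were higher on null replicate 7, with a median of -0.04. Over all tested probe sets the share higher there was 46.9%. The counts of genes higher on null replicate 7 are given by list as a description. Thyroid hormone response had 4 of 5 (median 0.27), NADPH supply and glycolytic entry 4 of 6 (0.10) and elongation and other desaturases 4 of 7 (0.05). Fatty acid synthesis and its precursors had 1 of 2 (0.06), electron donors 1 of 3 (-0.02) and transcription regulators 2 of 7 (-0.12). Acyl-CoA and triglyceride synthesis had 2 of 9 (-0.05) and LXR targets 1 of 5 (-0.24). With 2 to 9 tested genes in a list, these counts cannot show whether any list differed from the share over all tested probe sets.

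**Figure D3:**
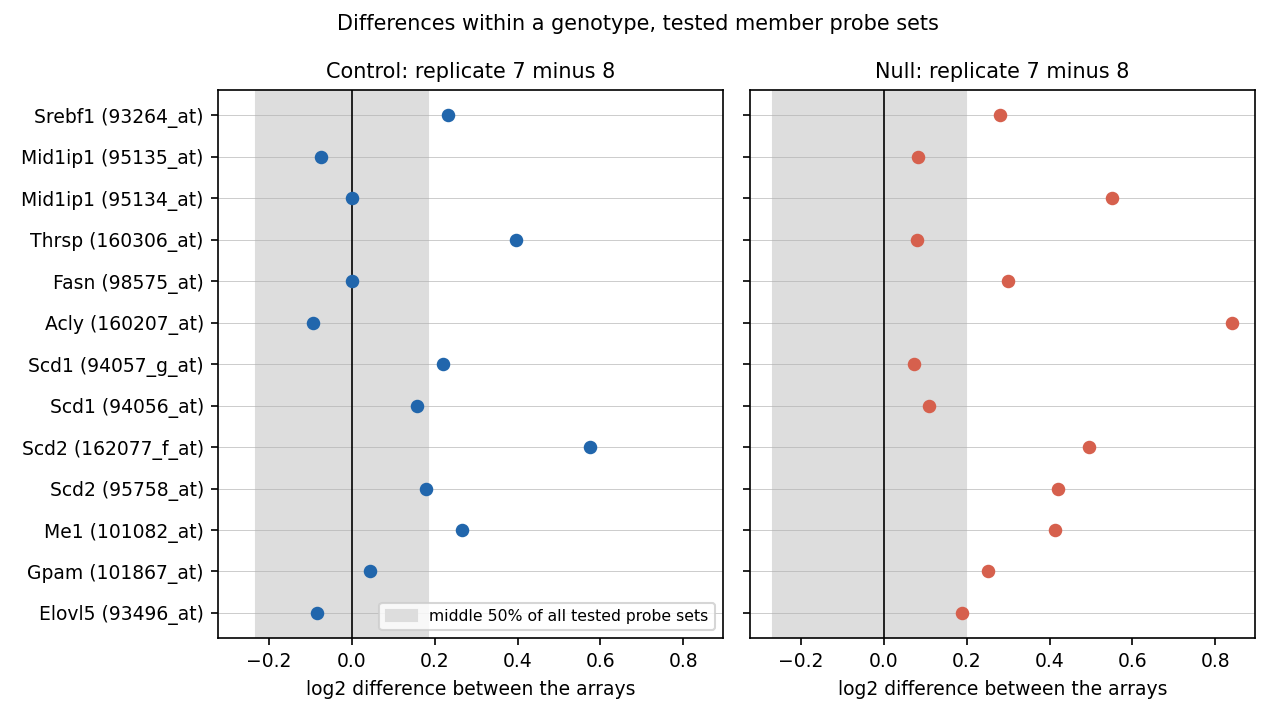
Difference between replicate 7 and replicate 8 within control (left, blue) and within null (right, red) on the log2 scale, for the 13 tested probe sets, with the middle 50% of all tested probe sets in grey. All null points lie to the right of 0, from 0.07 to 0.84, and the control points lie on both sides, from -0.09 to 0.58.

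Other genes of lipid synthesis and related pathways were taken from 8 lists of 86 genes, of which 44 were tested. Most of the genes not tested had no probe set of a single name on the array, and few were left out as too dim. Of 8 genes of fatty acid synthesis and its precursors, 3 were on the array and 2 were tested. Of 20 genes of acyl-CoA and triglyceride synthesis, 10 were on the array and 9 were tested. Among the lists were LXR targets outside fatty acid synthesis and thyroid hormone response genes, which are not all genes of lipid synthesis. In limma over all probe sets 0 of the 44 rose and 0 fell (smallest adjusted p = 0.11), with 4 higher and 2 lower at an unadjusted p under 0.05, where 0.399% of all 5510 genes passed on their brightest probe set, 0.309% higher and 0.0907% lower. Their median difference was 0.05 (log2), with 26 positive and 18 negative, against -0.01 for all genes. The groups did not overlap for 16 of the 44 genes higher and 7 lower in null liver, where 20.9% of all genes lay higher and 24% lower without overlap.

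Of 7 tested transcription regulators 0 passed. Pparg, the adipogenic nuclear receptor, read 29.2 and 24.7 in control liver against 48 and 45.1 in null liver, a difference of 0.79 ± 0.27 (log2, SE, n = 2 each) on a dim probe set. Rxra, the partner of LXR and other receptors, was at 0.37 ± 0.20 and 0.19 on another probe set. Nr1h3, which encodes LXR alpha, was at -0.05 ± 0.14, Mlx, the partner of the carbohydrate-responsive factor ChREBP, at -0.06 ± 0.17 and Mbtps1, the protease that begins the release of SREBP from its precursor, at -0.12 ± 0.14.

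Of 2 tested genes of fatty acid synthesis and its precursors 0 passed, with Slc25a1, the mitochondrial citrate carrier, at -0.09 ± 0.12 (log2, SE; -0.41 on another probe set) and Mlycd, which breaks down malonyl-CoA, at 0.28 ± 0.12. Of 6 genes of NADPH supply and glycolytic entry 0 passed. Pgd, of the pentose phosphate pathway, was at -0.30 ± 0.24, Pklr, the liver pyruvate kinase, at -0.21 ± 0.17 (-0.50 on another probe set), Tkt, the transketolase, at 0.08 ± 0.11 and Idh1, an NADP-dependent isocitrate dehydrogenase, at 0.06 ± 0.10.

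Of 7 elongases and other desaturation genes 0 passed, and they did not share a direction. Elovl6, which lengthens palmitate to stearate and is an SREBP-1 target, read 202.5 and 155.4 in control liver against 295.7 and 247.9 in null liver, a difference of 0.61 ± 0.18 (log2, SE, n = 2 each) with 0.54 on another probe set. Elovl2, which acts on very long polyunsaturated chains, read 397.4 and 413.4 in control liver against 303 and 293.2 in null liver, at -0.44 ± 0.12. For each of these elongases the null arrays did not overlap the control arrays, in opposite directions. Fads1, the delta-5 desaturase, was at -0.08 ± 0.11 and Hsd17b12, the ketoreductase of the elongation cycle, at 0.24 ± 0.11. Of the 3 electron donors of desaturases measured 0 passed. Cyb5a, the microsomal cytochrome b5, was at 0.11 ± 0.07, its reductase Cyb5r3 at -0.05 ± 0.08 and the outer mitochondrial Cyb5b at -0.20 ± 0.10, with 0.55 on another probe set.

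Of 9 genes of acyl-CoA and triglyceride synthesis 0 passed. Acsl4, an acyl-CoA synthetase that prefers arachidonate, read 114.8 and 100.7 in control liver against 175 and 198.1 in null liver, a difference of 0.79 ± 0.16 (log2, SE, n = 2 each; 0.61 on another probe set). Agpat5, a lysophosphatidate acyltransferase, was at 0.50 ± 0.30 on a dim probe set, Agpat3 at -0.10 ± 0.14 and Lpin1, a phosphatidate phosphatase, at -0.06 ± 0.22. Of 5 LXR targets outside fatty acid synthesis 0 passed. Lpl, the lipoprotein lipase, was at 0.39 ± 0.23 with 1.30 on another probe set, and Abcg1, a sterol exporter, at 0.35 ± 0.18. Abca1, the cholesterol exporter, was at -0.26 ± 0.19 on its brightest probe set and 0.88 on another, so its direction is not settled. Macrophages also express Abcg1, Abca1 and Lpl, and the part of such cells in these values was not tested.

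Of 5 thyroid hormone response genes 0 passed. Thrb, the main thyroid hormone receptor of liver, was at -0.51 ± 0.38 (log2, SE) on a dim probe set and Klf9, a hormone-responsive transcription factor, at -0.42 ± 0.14 with 0.22 on another. Thra was at 0.27 ± 0.19 and Dio1, the deiodinase of liver, at 0.24 ± 0.17.

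**Figure D4:**
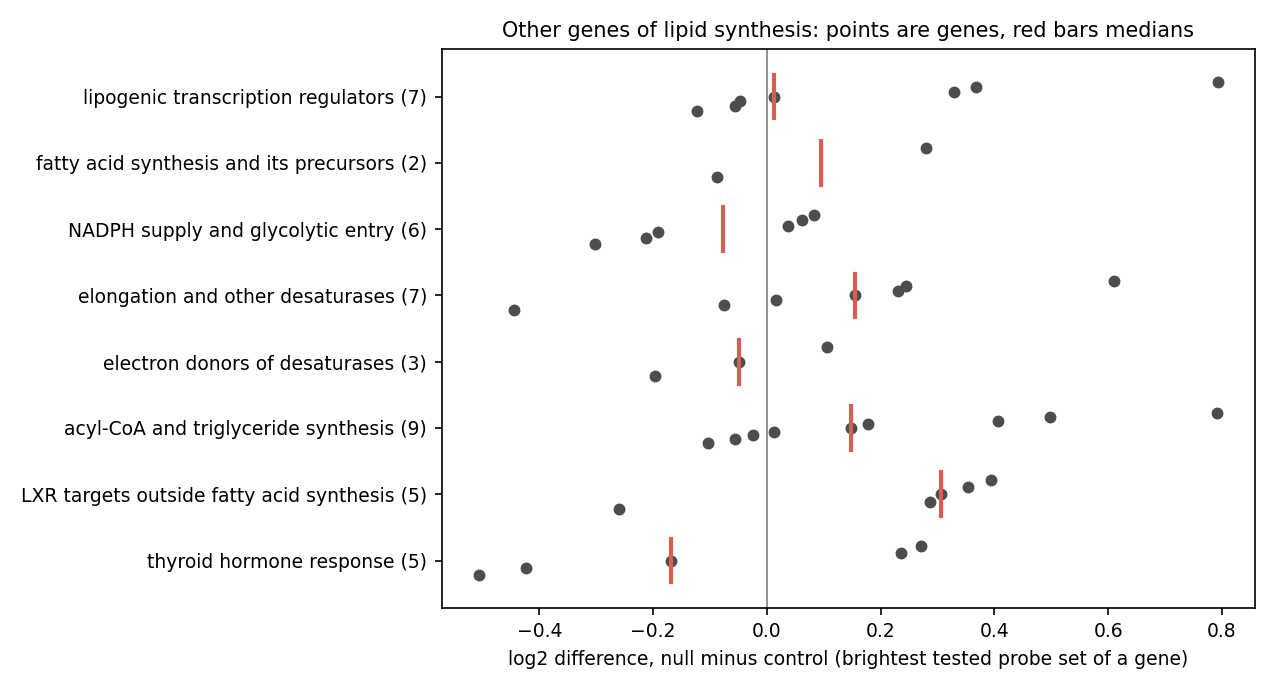
Difference between genotypes on the log2 scale for 44 other genes of lipid synthesis and related pathways, each as a point on its brightest tested probe set. The genes are in 8 lists, with the number of tested genes in brackets and the list's median as a red bar. The medians run from -0.17 for thyroid hormone response to 0.31 for LXR targets outside fatty acid synthesis.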

How the data were processed

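Signals of 4 arrays were used, 2 per genotype. The deposited values are the intensity of a probe set on a linear scale, which the authors obtained with GCOS from matched and mismatched probes and scaled to the chip's total fluorescence, per the labels' protocols, with version and target not given in the sources used here. After trimming, the mean signal was 100.1 on every array. Names came from the platform's annotation, updated by gene identifier to the GRCm38.p6 gene table; 396 probe sets with several names and 1193 with none were not named.

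No further normalisation was applied. Signals under 7.1 (25th percentile over the arrays) were set to that floor, the log2 was taken, and the fit used 7241 probe sets with a mean over log2 of 16.8 (40th percentile), leaving out 66 control probe sets. The floor held 24.7% to 25.6% of an array's probe sets, and changes of dim genes are understated. The number of arrays limits the precision. The genotype comparison used limma 3.58.1 (R 4.3.3; lmFit and eBayes with an intensity trend, two-sided, Benjamini-Hochberg over all tested probe sets), where the prior counted for 4.78 degrees of freedom and the arrays for 2. Means, SE and 95% intervals come from this fit. The steps were tested on simulated data. A listed gene was represented by its brightest tested probe set. Named genes were every probe set of the 10 genes and, in each list, those past the threshold and up to 2 largest differences in each direction. Nr1h3 and the marker genes given with values are named outside this rule, chosen after their values were seen. The members and lists were chosen with earlier results of these data known. Alternatives were other floors, filters, scalings and variance models, a replicate block, and leaving out each array.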

Additional observations from a re-analysis of the deposited data

How the results depend on the processing

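The differences of Srebf1, Mid1ip1, both tested probe sets of Scd2 and Elovl5 kept their sign under all 12 alternatives. Srebf1 ranged from -1.08 to -0.80, Scd2 from 1.74 to 2.16 (95758_at) and from 1.14 to 1.71 (162077_f_at), and Mid1ip1 (95135_at) from -1.04 to -0.93 on the log2 scale. The smaller differences depended on the arrays, with Mid1ip1 (95134_at) at -0.58 to -0.03 and Elovl5 at 0.08 to 0.27 when an array was left out. Thrsp, Fasn, Acly, Scd1, Me1 and Gpam each turned sign under 1 to 4 alternatives, and the cause was not tested. The counts of calls in limma depended on the settings. No filter on dim probe sets, a floor at the 50th percentile or no intensity trend gave 0 higher and 0 lower calls over all probe sets, and 0 and 0 among the members. A filter at the 60th percentile gave 15 lower over all probe sets and 2 lower members, and quantile normalization gave 12 and 2, the second lower member being Srebf1 in both. The deviations of arrays of the same replicate number had a correlation of -0.03 over tested probe sets, and the numbers were not taken as pairs. A single correlation of this kind cannot show that the arrays were unpaired. With the replicate block there were 37 higher and 15 lower calls over all probe sets, and 2 higher and 2 lower members (Srebf1 and Scd2 162077_f_at were added). Leaving out an array gave 10 to 13 higher and 0 to 4 lower over all probe sets, and 0 to 0 higher and 0 to 0 lower members. In such fits a lone array is assumed to vary like the others. None of the 12 alternatives gave a call among the other genes of lipid synthesis and related pathways, where the count was 0 higher and 0 lower throughout. Dim signals, such as those of Scd2 in control liver, limit how closely a fold can be read.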
